A study of Rattus norvegicus with 6 samples.

Results

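The rat circRNA array carries, beside its circRNA probes, a set of Agilent catalogue probes for ordinary linear transcripts, and 49 of the 14227 features other than controls belong to it. They were chosen by name and annotation alone, as probes of the A_42, A_43 or A_44 series with a transcript accession, each printed on 10 spots, and the Dlg4 probe of the same series was left out. The rule itself reads no measured value. Of the 49 accessions, 28 were RefSeq NM accessions, and all 28 matched a gene symbol of the GRCr8 annotation. The other 21 (3 RefSeq XM, 6 Ensembl, 7 GenBank and 5 tentative consensus accessions) were not matched to a symbol and are given by accession.

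Signals came from the hypothalamus, including the preoptic area, of male Sprague Dawley rats, with 3 rats in the HA (heat acclimation) group, 3 in the C (control) group and 1 array per rat. Heat exposure in the HA group lasted 2 h daily for 30 days, at 35°C and a relative humidity of 55%, while C rats stayed at 24°C and carry 0 days of heat exposure in the labels. All rats were killed on day 31 under pentobarbital sodium. The RNA of both groups was digested with RNase R before random-primed labeling with Cy3.

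RNase R is an exonuclease that digests RNA from a free end, so that linear RNA is degraded and circular RNA, which has no end, is largely spared. Back-splicing joins exons of a host gene into a circle, and these exons are also part of the host's linear mRNA. Signal of a probe inside such an exon can therefore come from linear RNA that survived digestion or from a circle, and for these probes the sources cannot be told apart. In RNA from whole tissue, fewer cells of a type and less RNA per cell cannot be told apart either.

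All 6 arrays shared 1 scan. The median signal over the features other than controls was 82.1 on the array of HA replicate 1 and between 109 and 134 on the other arrays. None of the 77 negative control spots was well above background on any array, and their median signal lay between 1.03 and 1.5. No spot of the 49 transcripts was saturated, and 113 of their 2940 spots were marked as outliers by the software and left out, which left 7 to 10 usable spots per transcript and array.

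After RNase R, 27 of the 49 transcripts were detected on all 6 arrays, 16 on some arrays and 6 on none. A transcript was counted as detected on an array when more than 0.5 of its usable spots were marked well above background, the software's test of a spot against the background of that array. All 6 arrays carried digested RNA, so loss in digestion, absence from the tissue and a weak probe cannot be told apart where detection failed. The share detected on all 6 arrays was 55.1% of the transcripts, against 93.8% of the 14145 circRNA probes by the same flag. The share detected on none was 12.2%, against 0.961% of the circRNA probes. The circRNA probes had 1 spot each, and those marked as outliers counted as not detected. Among the 28 transcripts with a gene symbol, 15 were detected on all arrays, 8 on some and 5 on none. All 6 Ensembl transcripts and 5 of the 7 GenBank transcripts were detected on all arrays, whereas 0 of the 5 tentative consensus transcripts were. For 25 of the 27 transcripts detected throughout, every usable spot on every array was above background.

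**Figure D1:**
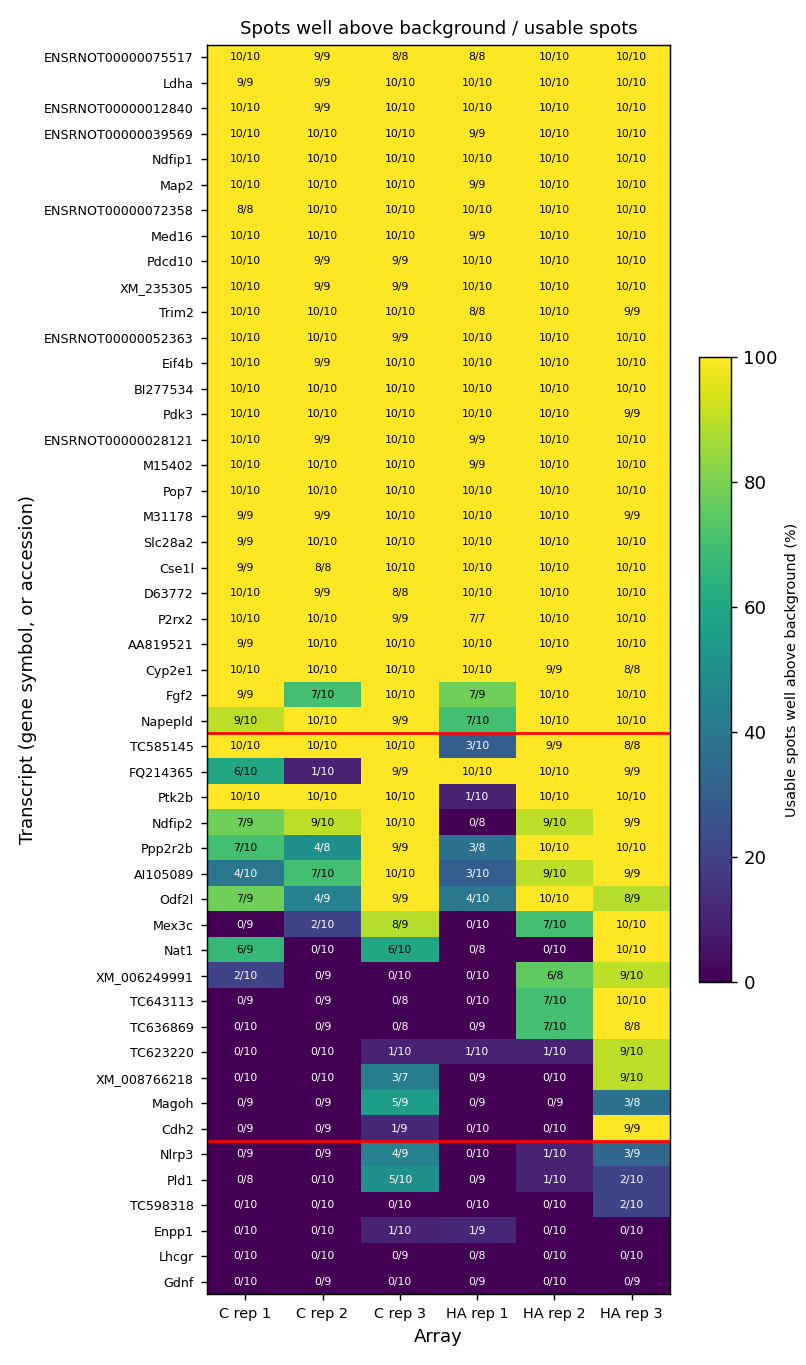
Number of usable spots well above background for each of the 49 transcripts (rows) on each of the 6 arrays (columns), with the color giving the percentage of usable spots; red lines part the 27 transcripts detected on all arrays, the 16 detected on some and the 6 detected on none. The column of HA replicate 3 holds the most detected transcripts (42) and that of HA replicate 1 the fewest (28).

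Signals are given below as the background-subtracted intensity on a linear scale (gProcessedSignal, geometric mean over the usable spots), for replicates 1, 2 and 3 in this order. The brightness of a probe depends on its sequence as well as on its transcript, so signals are compared between arrays and not between transcripts. These signals are not normalized between arrays. The order of the arrays can therefore differ from that on the normalized log2 scale, where arrays were normalized by quantiles over all features. The lists of reference genes, chaperones, hypothalamic peptides and cell type markers shared 3 genes with the 49 transcripts, namely Ldha among 16 reference genes, Map2 among 11 neuronal genes and Cyp2e1 among 5 liver genes. The remaining 10 lists, with the hypothalamic peptides, the glial genes and the heat shock genes, had 0 members here. Of the tissue and cell type lists, only the neuronal and the liver list thus had a gene, 1 each. Map2 and Cyp2e1 were both above background on every usable spot of all 6 arrays, so these lists gave no check of the tissue.

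Metabolic enzymes fell into every class of detection, 4 on all arrays, 1 on some and 2 on none. Ldha, the lactate dehydrogenase subunit that reduces pyruvate to lactate, had signals of 587, 763 and 769 in the C group and 514, 791 and 1029 in the HA group. Before normalization, HA replicate 1 was the lowest and HA replicate 3 the highest, and the groups overlapped. On the normalized log2 scale, HA replicate 3 was still the highest, but C replicate 1 was the lowest, at 9.13, against 9.54 on HA replicate 1. Pdk3 encodes a kinase that inhibits the pyruvate dehydrogenase complex, and its signals were 30.4, 27.3 and 37.8 in the C group and 22.2, 49.6 and 49.5 in the HA group, with HA replicates 2 and 3 above every C array and HA replicate 1 below. Cyp2e1, a cytochrome P450 abundant in liver that oxidizes ethanol, was detected on all arrays at 13.4, 11.5 and 12.1 in the C group and 11.9, 12.2 and 18.3 in the HA group. Before normalization, its values lay close together apart from HA replicate 3. On the normalized log2 scale, HA replicate 1 was the highest, at 3.98, and HA replicate 3 stood at 3.81, under C replicate 1 at 3.82. Napepld, a phospholipase that forms N-acylethanolamines such as anandamide, gave 10.98, 10.01 and 11.1 in the C group and 7.97, 8.93 and 11.97 in the HA group, near the limit of detection. Nat1, an arylamine N-acetyltransferase, was detected on 3 arrays, with 7.75, 1.90 and 5.32 in the C group and 4.99, 2.54 and 8.77 in the HA group. It passed on C replicates 1 and 3 and HA replicate 3, and on the other 3 arrays 0 of its spots did. Pld1, a phospholipase D that releases phosphatidic acid, and Enpp1, an ectoenzyme that generates pyrophosphate, were detected on no array. The signals of Pld1 reached 4.92 on C replicate 3, where 5 of 10 spots passed, and those of Enpp1 stayed between 1.47 and 2.24.

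Neuronal transcripts were detected on all arrays in 2 of 5 cases and on some in 3. Map2, a microtubule-associated protein of dendrites, had signals of 232, 239.5 and 302 in the C group and 166, 258 and 449 in the HA group. Every usable spot was above background, with HA replicate 1 lowest and HA replicate 3 highest before normalization. On the normalized log2 scale, HA replicate 3 was still the highest, but HA replicate 2 was the lowest, at 7.74. P2rx2, an ATP-gated cation channel, was likewise above background on every usable spot, at 13.5, 13.99 and 17.2 in the C group and 12.9, 12.5 and 20.2 in the HA group. Its lowest and highest arrays both belonged to the HA group. Ptk2b, a calcium-responsive tyrosine kinase of neurons, was detected on 5 arrays and lost on HA replicate 1, with signals of 9.31, 18.5 and 10.6 in the C group and 4.43, 10.3 and 13.3 in the HA group. There, 1 of 10 spots passed, against every spot on the other arrays. Ppp2r2b, a brain-enriched regulatory subunit of a protein phosphatase, gave signals of 8.04, 6.40 and 11.9 in the C group and 6.60, 7.95 and 15.4 in the HA group. Its spots above background numbered 7 of 10, 4 of 8 and 9 of 9 in the C group and 3 of 8, 10 of 10 and 10 of 10 in the HA group. It missed the limit on C replicate 2 and HA replicate 1. Cdh2, the adhesion molecule N-cadherin, was detected on HA replicate 3 alone, with signals of 2.97, 1.38 and 2.95 in the C group and 1.94, 1.21 and 8.96 in the HA group. On that array, 9 of 9 spots passed.

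Ubiquitin ligases and their adaptors gave a pair of paralogs with different detection. Ndfip1 and Ndfip2 encode membrane adaptors that recruit ligases of the Nedd4 family. Ndfip1 was detected throughout, at 374, 482 and 377 in the C group and 170.2, 482 and 490.0 in the HA group, and HA replicate 1 was the lowest array by far. Ndfip2 was detected on 5 arrays, at 7.94, 8.84 and 12.5 in the C group and 3.47, 8.90 and 17.5 in the HA group, and on HA replicate 1 none of its 8 usable spots passed. Both paralogs were thus lowest on the same array. On the normalized log2 scale, which removes the overall brightness of the arrays, HA replicate 1 was also the lowest array of both, at 7.90 for Ndfip1 against a range of 8.44 to 8.95 on the other arrays and at 2.25 for Ndfip2 against 2.99 to 3.72. Trim2, a ligase that binds a neurofilament subunit, was detected on all arrays, at 42.2, 81.5 and 119.7 in the C group and 43.8, 67.6 and 152 in the HA group. It varied widely in both groups, from C replicate 1 to HA replicate 3.

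Transcripts for the handling of RNA and gene expression were detected on all arrays in 3 of 5 cases. Med16, a subunit of the Mediator complex, had signals of 106, 158 and 124 in the C group and 71.2, 126 and 166 in the HA group. Eif4b, a translation initiation factor that stimulates the unwinding of mRNA, gave 50.4, 45.6 and 65.2 in the C group and 34.3, 44.3 and 70.5 in the HA group, and Pop7, a protein subunit of RNase P, gave 20.6 to 32.2 over the 6 arrays. In all 3, HA replicate 1, the array with the lowest median signal, had the lowest signal before normalization and HA replicate 3 the highest. This order was not kept on the normalized log2 scale. There, Med16 was highest on C replicate 2 and lowest on HA replicate 1. Eif4b was highest on HA replicate 3 and lowest on HA replicate 2. Pop7 was highest on HA replicate 1 and lowest on HA replicate 2. Mex3c, an RNA-binding ubiquitin ligase, was detected on 3 arrays, with 4.37, 3.76 and 6.74 in the C group and 3.32, 5.46 and 12.6 in the HA group, and passed on C replicate 3 and HA replicates 2 and 3. Magoh, a core protein of the exon junction complex, passed on C replicate 3 alone, with 5 of 9 spots, at 2.27, 2.10 and 5.74 in the C group and 2.44, 2.13 and 4.7996 in the HA group.

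Of the growth factors and receptors, 1 of 3 was detected. Fgf2, a fibroblast growth factor, was detected on all arrays, at 10.3, 7.89 and 13.8 in the C group and 7.89, 7.66 and 21.4 in the HA group, and 7 of 10 spots passed on C replicate 2 and 7 of 9 on HA replicate 1. Gdnf, a neurotrophic factor for dopaminergic neurons, and Lhcgr, the luteinizing hormone receptor of the gonads, had 0 spots above background on any array. Their signals, 1.22 to 1.53 for Gdnf and 1.21 to 1.53 for Lhcgr, lay within or close to the range of the medians of the negative control spots. These were the only transcripts of the 49 without a single spot above background.

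Both transport genes were detected on all arrays. Slc28a2, a sodium-coupled nucleoside transporter, gave 17.3, 24.8 and 22.3 in the C group and 17.00, 20.5 and 22.3 in the HA group, with C replicate 2 highest. Cse1l, which returns importin alpha from the nucleus to the cytoplasm, gave 14.3, 14.6 and 22.1 in the C group and 10.02, 13.5 and 32.5 in the HA group, with HA replicate 3 highest. Among the remaining genes, Pdcd10, whose loss causes cerebral cavernous malformations, was detected throughout, at 115, 103 and 134 in the C group and 91.8, 162 and 122 in the HA group. Odf2l, named for its likeness to a sperm tail protein, was detected on 4 arrays, at 8.98, 6.88 and 8.26 in the C group and 6.99, 8.02 and 6.27 in the HA group, and was the only detected transcript with a symbol whose signal was lowest on HA replicate 3. Nlrp3, the sensor of an inflammasome of myeloid cells, was detected on none, with at most 4 of 9 spots above background, on C replicate 3.

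**Figure D2:**
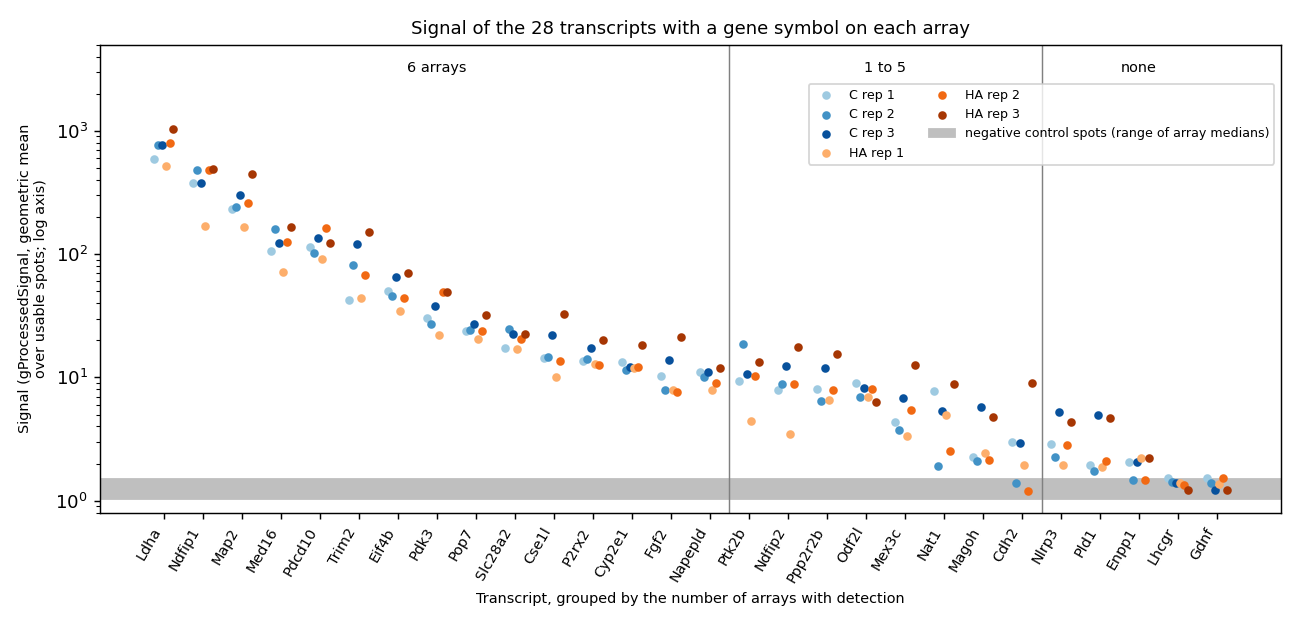
Signal of the 28 transcripts with a gene symbol (x axis), as the geometric mean over usable spots on a log axis (y axis); each point is 1 array, blue for C and orange to brown for HA, and the grey band is the range of the medians of the negative control spots, 1.03 to 1.5. Gdnf and Lhcgr sit at the band, and the points of HA replicate 1 lie at the bottom of most columns of the transcripts detected on all 6 arrays.

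Of the 16 transcripts detected on some arrays, 15 were detected on HA replicate 3 and 1 on HA replicate 1, against 7, 4 and 10 on C replicates 1, 2 and 3 and 11 on HA replicate 2. The exceptions were Magoh, which missed on HA replicate 3, and the GenBank transcript FQ214365, which passed on HA replicate 1. In all, 34, 31 and 37 of the 49 transcripts were detected on the C arrays and 28, 38 and 42 on the HA arrays, so that the HA arrays held both the lowest and the highest number. The share of circRNA probes detected was also lowest on HA replicate 1, at 95.4%, and highest on HA replicate 3, at 98.4%. The part of the brightness and background of the arrays in these counts was not tested. By group, 30 transcripts were detected on all 3 C arrays and 28 on all 3 HA arrays, and 37 and 42 on at least 1 array of the group.

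Detection also depended on the limit of each array. The lowest signal at which a transcript was called detected lay between 5.32, on C replicate 3, and 7.89, on HA replicate 1. When the normalized log2 limit of HA replicate 1, the highest of the 6 at 3.05, was set for every array, 31, 32 and 32 transcripts passed on the C arrays and 31, 27 and 34 on the HA arrays. HA replicate 3 kept the highest number under this limit, and the lowest moved from HA replicate 1 to HA replicate 2. The limit is the lowest normalized value among features detected on HA replicate 1, so a transcript can pass it without detection. On HA replicate 1, 31 passed and 28 were detected, and on C replicate 2, 32 passed and 31 were detected. This common limit was chosen after the values were seen.

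Detection in a single group was found for 7 transcripts, 6 in the HA group and 1 in the C group. In the C group this was Magoh, on 1 array. In the HA group they were Cdh2, XM_008766218 and TC623220, on HA replicate 3 alone, and XM_006249991, TC643113 and TC636869, on HA replicates 2 and 3. All 6 were thus detected on HA replicate 3, the array with the most detected transcripts (42) and circRNA probes (98.4%). The share of all features detected in a single group was not counted. TC643113 had signals of 1.98, 1.86 and 1.85 in the C group and 3.65, 5.74 and 11.6 in the HA group, with 0 usable spots above background in the C group. TC636869 gave 2.26, 1.83 and 3.42 in the C group and 1.78, 5.49 and 6.92 in the HA group, and XM_006249991 gave 5.17, 2.18 and 3.15 in the C group and 2.90, 5.81 and 7.75 in the HA group. The last of these is predicted from the genome, as its XM accession says, and the others are assembled from expressed sequence tags. TC623220 gave 2.11, 1.95 and 3.09 in the C group and 4.47, 3.62 and 8.39 in the HA group, and XM_008766218 gave 4.06, 1.96 and 5.78 in the C group and 1.40, 3.11 and 7.71 in the HA group. On HA replicate 3, 9 of 10 spots of each passed. For XM_008766218, detection in the HA group went against the group means, since its normalized log2 values averaged 1.54 for HA and 1.98 for C. For none of the 7 can a fold change be stated, since the mean of the group with detection lay under the limit of the other group, set for each array at the higher of the transcript's own value and the lowest normalized signal among probes well above background.

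The remaining transcripts of this class without a symbol were TC585145, AI105089 and FQ214365. TC585145 missed on HA replicate 1 alone, where 3 of 10 spots passed, with signals of 9.79, 14.1 and 16.5 in the C group and 5.73, 8.84 and 18.2 in the HA group. AI105089 missed on C replicate 1 and HA replicate 1, with 7.77, 7.58 and 8.94 in the C group and 6.31, 7.37 and 10.9 in the HA group, and its 6 values lay close to the limit. FQ214365 missed on C replicate 2 and is described with the comparison of the groups.

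After normalization, many of the transcripts had their highest or lowest value on the same array. Arrays were normalized by quantiles over all features, and each value was set against the transcript's own mean over the 6 arrays, for the 27 transcripts detected on all of them. HA replicate 3 was the highest array for 13 of the 27 (48.1%), against 19.7% of the circRNA probes detected on all arrays. HA replicate 2 was the lowest for 11 (40.7%), against 17.4% of the circRNA probes. The median deviation was 0.41 log2 units on HA replicate 3 and -0.29 on HA replicate 2, with medians between -0.07 and 0.07 on the other arrays, and 21 and 4 of the 27 lay above their own mean on these arrays. Over the circRNA probes, the medians were -0.03 on HA replicate 3 and 0.01 on HA replicate 2. The circRNA probes are 14145 of the 14227 features that set the quantiles, so the normalization itself holds their medians near 0. With each array scaled to its 75th percentile instead, HA replicate 3 was the highest for 20 of the 27 (74.1%), against 29.4% of the circRNA probes, and HA replicate 2 the lowest for 14 (51.9%), against 22.0%. The arrays that departed furthest in both directions thus belonged to the same group, and both lay in row 2 of the slide, while the other 4 lay in row 1. The part of the position on the slide in this pattern was not tested.

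**Figure D3:**
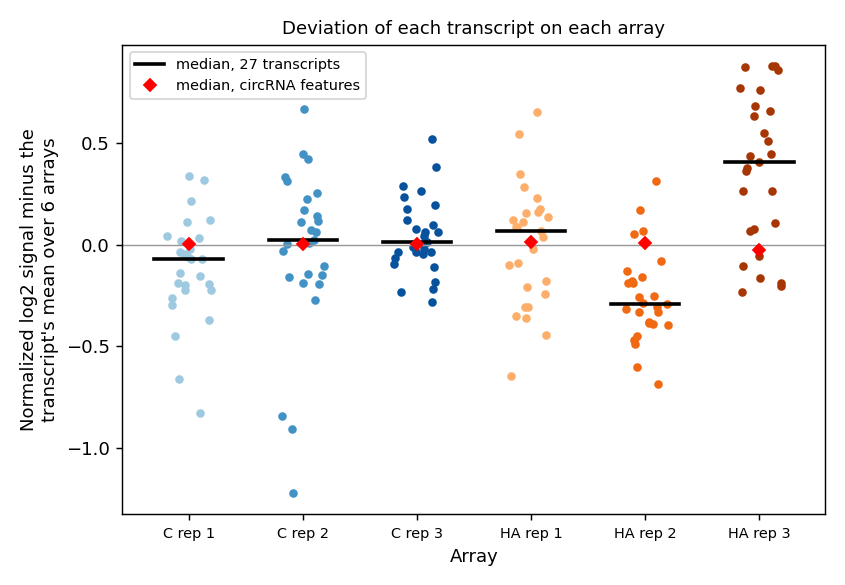
Normalized log2 signal of the 27 transcripts detected on all arrays minus each transcript's mean over the 6 arrays (y axis), by array (x axis); each point is 1 transcript, black bars are medians of the 27 and red diamonds are medians of the circRNA probes. The black bar is at 0.41 on HA replicate 3 and at -0.29 on HA replicate 2. The diamonds stay near 0, where the normalization over all features, most of them circRNA probes, holds them.

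Individual transcripts followed this pattern to a different degree. Map2 had normalized log2 values of 7.83, 7.90 and 8.12 in the C group and 7.87, 7.74 and 8.82 in the HA group, so that HA replicate 3 stood above all other arrays. Trim2 gave 5.43, 6.43 and 6.78 in the C group and 5.90, 5.87 and 7.14 in the HA group, and Cse1l gave 3.91, 4.09 and 4.33 in the C group and 3.76, 3.58 and 4.72 in the HA group. All 3 were highest on HA replicate 3. The GenBank transcript D63772 gave 3.32, 4.29 and 3.91 in the C group and 4.12, 3.38 and 4.85 in the HA group, again highest on HA replicate 3, and the Ensembl transcript ENSRNOT00000012840 gave 8.89, 9.09 and 9.29 in the C group and 9.10, 8.72 and 10.05 in the HA group. Slc28a2 and the GenBank transcript BI277534 went the other way and were lowest on HA replicate 3, at 4.12 and 5.29. Pdcd10 varied least of the 27, over a range of 0.32 log2 units, and ENSRNOT00000075517 most, over 1.77. For the latter, C replicate 2 was low, at 9.36 against 10.19 to 11.13 on the other arrays.

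The spots of an array gave close values for most transcripts detected throughout, and the arrays of a group differed more. Over the 27 transcripts detected throughout, the SD between usable spots of an array had a median of 0.0757 log2 units, and the pooled SD between the arrays of a group, here called the SD between rats, had a median of 0.345. With 1 array per rat, the latter also holds differences in labeling, hybridization and place on the slide, which cannot be told apart from those between rats. The SD between rats was the larger in 25 of the 27, with Napepld and Pop7 as the exceptions. The SD between spots is that of single spots, while the SD between rats is that of means over the usable spots. These measures are therefore unlike. The spread that spot error gives to such means was not computed, so the exceptions do not show that it covers the spread between rats. Ldha, for example, had an SD of 0.0438 between spots and 0.303 between rats, and Trim2 had 0.0672 and 0.712. Pdcd10 had the lowest SD between rats of the 27, at 0.123. Spots of an array share its RNA and are no replicates of a rat. The median SD between rats of the circRNA probes detected on all arrays was 0.241. That value rests on 1 spot per probe, and the 0.345 of the transcripts on means over spots, so they are not directly comparable. The sets were also not matched for brightness.

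**Figure D4:**
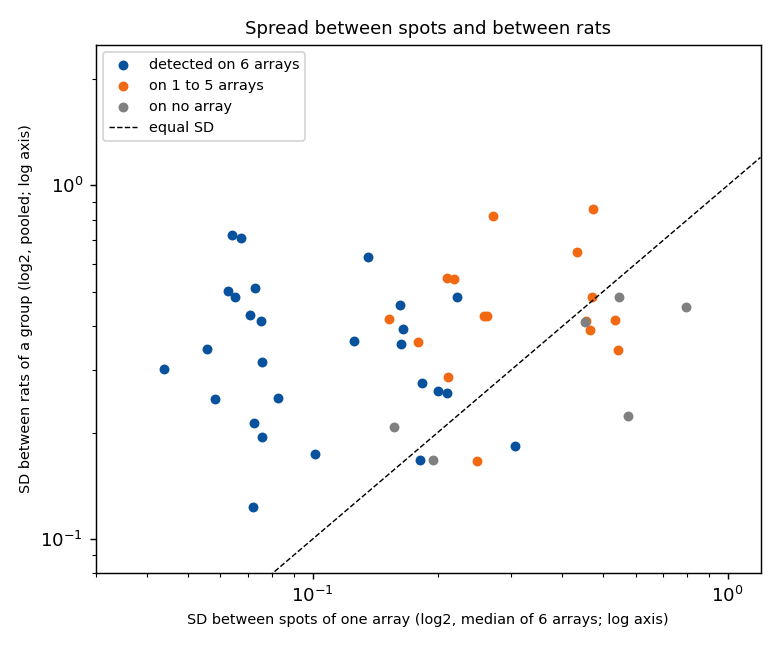
SD between rats of a group, pooled over both groups (y axis), against the SD between usable spots of an array, as the median over the 6 arrays (x axis), for the 49 transcripts on log axes in log2 units; colors give the class of detection and the dashed line marks equal SD. Of the 27 transcripts detected on all arrays, 25 lie above the line. The y axis is taken over means of spots and the x axis over single spots.

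Between HA and C, none of the tested transcripts with a gene symbol reached an unadjusted P of 0.05 in limma with all 6 arrays. Of all features tested, 4.66% had an unadjusted P under 0.05 in limma. The comparison asks whether the signal of these transcripts in the hypothalamus changed with heat acclimation. A total of 36 transcripts, detected on at least 3 of the 6 arrays, entered limma's moderated test, which was fitted over 13892 features. HA exceeded C in 15 of the 36 and C exceeded HA in 21, with a median log2 fold change of -0.05 and a range of -0.63 to 0.93. The median over all features tested was -0.01. The direction of the median over the 36 depended on the scale: with each array at its 75th percentile, 24 were higher and 12 lower, with a median of 0.16. All features tested moved the same way on that scale, with a median of 0.05. HA exceeded C in 58.8% of them, against 48.8% after quantile normalization. The median over the 36 also depended on single rats, at 0.10 without HA replicate 2 and -0.17 without HA replicate 3.

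At an unadjusted P under 0.05 in limma, 2 of the 36 transcripts (5.56%) were called, both higher in the HA group, against 4.66% of all features tested. The same 2 passed a fold change over 1.5 together with this P, against 2.65% of all features. After Benjamini-Hochberg adjustment in limma over all features, 0 of the 36 had an adjusted P under 0.05 (0% of all features), and the smallest adjusted P was 0.797. The count at an unadjusted P under 0.05 was 4 without C replicate 1 or HA replicate 1 and 5 without HA replicate 3, and the count after adjustment was 0 with each array left out. A fold change over 1.5 was found for 2 transcripts (5.56%) toward HA and 1 (2.78%) toward C, against 2.27% and 2.25% of all features. These 3 became 6 without C replicate 1 or C replicate 3, 7 without HA replicate 2 and 5 without HA replicate 3. The 1 toward C was Ptk2b, which was not detected on HA replicate 1. The HA and C values did not overlap for 3 of the 36 (8.33%), against 10.1% of all features. Each of these shares rests on 1 to 3 transcripts. Shares of all features are given for all 6 arrays only, and the counts with an array left out have none beside them. Whether those shifts were particular to the 36 transcripts was not tested.

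The transcripts called before adjustment were M15402 and FQ214365, GenBank accessions without a symbol here. M15402 had signals of 21.7, 12.2 and 25.3 in the C group and 31.00, 32.4 and 51.02 in the HA group. Each HA array lay above each C array, and so did the normalized log2 values, which averaged 5.21 ± 0.35 (SD, n = 3) for HA and 4.28 ± 0.38 (SD, n = 3) for C. HA exceeded C by 0.93 log2 units with a standard error of 0.25 (limma, unadjusted P = 0.00412, adjusted P = 0.797), and it was detected on every spot of all arrays. FQ214365 had signals of 7.55, 4.69 and 11.3 in the C group and 12.6, 12.7 and 21.7 in the HA group. Its spots above background numbered 6 of 10, 1 of 10 and 9 of 9 in the C group and 10 of 10, 10 of 10 and 9 of 9 in the HA group. C replicate 2 was not detected, and all HA arrays lay above all C arrays. The normalized log2 values averaged 3.88 ± 0.36 (SD, n = 3) for HA and 2.96 ± 0.36 (SD, n = 3) for C. The difference was 0.91 log2 units with a standard error of 0.25 (limma, unadjusted P = 0.00452, adjusted P = 0.838). Both kept their direction and an unadjusted P under 0.05 with each array left out. With the median spot intensity in place of the background-subtracted signal, with or without normexp correction, the differences were as low as 0.31 for M15402 and 0.13 for FQ214365, and the unadjusted P in limma was at most 0.0173 and 0.165. M31178, the third transcript without overlap, had normalized log2 values of 3.91, 4.18 and 4.18 in the C group and 4.43, 4.23 and 5.24 in the HA group (log2 fold change 0.55, limma, unadjusted P = 0.0643, adjusted P = 0.923).

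**Figure D5:**
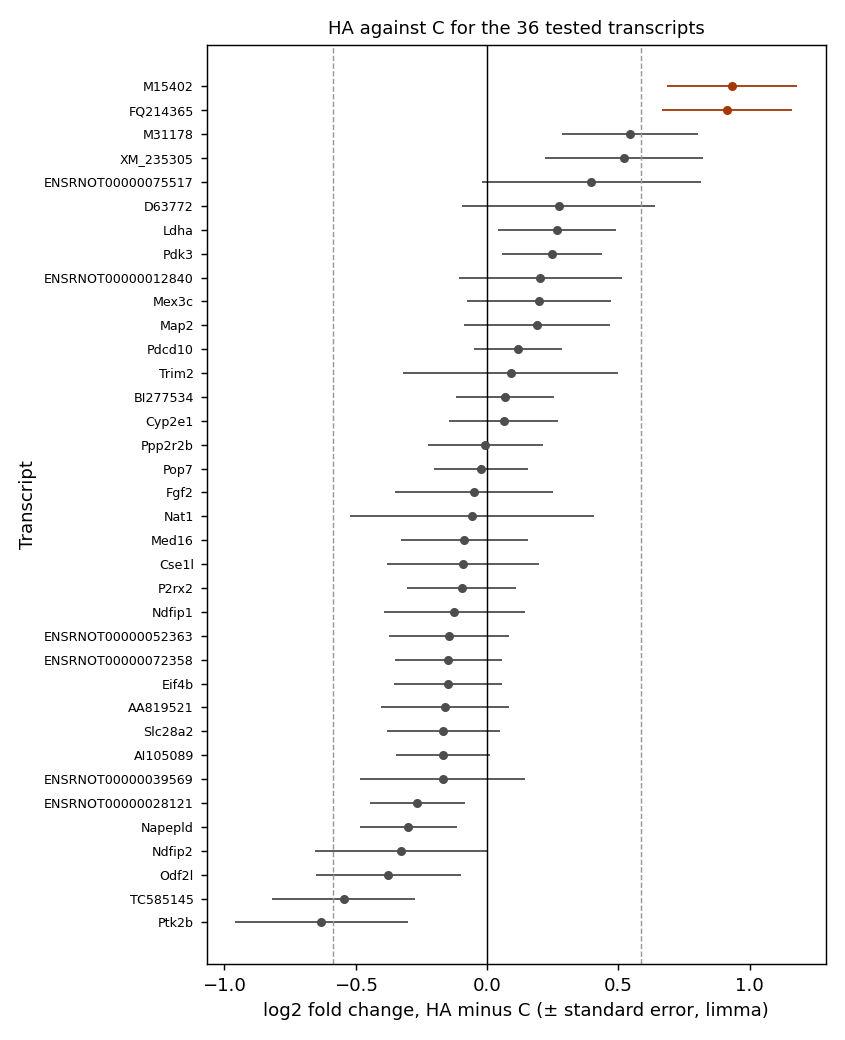
Log2 fold change of HA against C (x axis) with its standard error from limma for the 36 tested transcripts (y axis), ordered by size; dashed lines mark a fold change of 1.5 and the colored points had an unadjusted P under 0.05. M15402 and FQ214365 stand at 0.93 and 0.91, and all transcripts with a gene symbol other than Ptk2b lie between the dashed lines.

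By role, HA exceeded C in 7 of the 21 tested transcripts with a symbol, against 48.8% of all features tested, both after quantile normalization. An unadjusted P under 0.05 in limma was reached by 0 of the 21, against 4.66% of all features tested. With single arrays left out, some passed this P: Ptk2b, toward C, without C replicate 1 or C replicate 3, Ndfip2, toward C, without HA replicate 3, and Odf2l, toward C, and Pdk3, toward HA, without HA replicate 1. The neuronal transcripts ranged from -0.63 for Ptk2b (limma, unadjusted P = 0.0866) to 0.19 for Map2, over 4 tested. Ptk2b was the transcript with the largest difference toward C and the smallest P of this set, and it had 3.32, 4.43 and 3.22 in the C group and 2.59, 3.17 and 3.31 in the HA group as normalized log2 values, where C replicate 2 was high and HA replicate 1 low. It was not detected on HA replicate 1, where its value lay under that array's limit of 3.05. For the 9 tested transcripts not detected on all 6 arrays, the fold changes include values from arrays without detection. The metabolic transcripts ranged from -0.30 for Napepld to 0.27 for Ldha, over 5 tested. Pdk3 stood at 0.25 (standard error 0.19), and its normalized log2 values were 4.97, 4.92 and 5.08 in the C group and 4.91, 5.43 and 5.38 in the HA group. The ubiquitin ligases and adaptors ranged from -0.33 for Ndfip2 to 0.09 for Trim2, with Ndfip1 at -0.12. The transcripts of RNA handling ranged from -0.15 for Eif4b to 0.20 for Mex3c, which was detected on 3 arrays only. The transport genes stood at -0.17 for Slc28a2, which became 0.029 when arrays were scaled to the 75th percentile, and at -0.09 for Cse1l. Ldha stood at 0.06 without HA replicate 3 and Napepld at -0.045 on the 75th percentile scale. The sign turned for Map2 without HA replicate 3, for Eif4b without HA replicate 2 and for Slc28a2 without C replicate 2, and a block on slide row turned it for Map2, Pdk3 and Slc28a2. The median standard error over the 36 transcripts was 0.25.

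Ldha also had a probe in the array's set of reference genes, outside the series described here. The catalogue probe gave normalized log2 values of 9.13, 9.50 and 9.47 in the C group and 9.54, 9.32 and 10.05 in the HA group, and the other probe gave 7.65, 6.996 and 7.63 in the C group and 7.72, 7.60 and 8.14 in the HA group. Both were highest on HA replicate 3. They disagreed on C replicate 2, which was the highest of the C arrays by the catalogue probe and the lowest of all arrays by the other. Their log2 fold changes were 0.27 (limma, unadjusted P = 0.263) and 0.40 (limma, unadjusted P = 0.124). Dlg4, the transcript of the catalogue series left out, was detected on all 6 arrays with a log2 fold change of 0.25 (limma, unadjusted P = 0.244).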

How the data were processed

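Hypothalamic RNA of 3 HA and 3 C rats was measured on 1-color Agilent arrays. The authors digested the RNA with RNase R, labeled it with random primers, and read the scans in Feature Extraction (Agilent, 11.0.1.1). The deposited intensity values (gProcessedSignal, and the median intensity of each spot and of its background) are linear and not normalized between arrays, and the deposited flags are the software's other outputs, 0 or 1. The design file names the rn4 build, and symbols were taken from GRCr8 accessions without versions, so no coordinates are given.

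Spots that the software marked as outliers, by uniformity or within their population, were dropped, log2 values were averaged over spots, and arrays were normalized by quantiles (limma 3.58.1, R 4.3.3). Features detected on at least 3 arrays were tested with lmFit and eBayes, two-sided, without covariates, with Benjamini-Hochberg adjustment over all features. Precision is limited by there being 3 arrays a group, and P values measure the spread between these arrays, 1 per rat.

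Transcripts, lists and limits were chosen with earlier results of these data known. Values per array were given for transcripts detected on 1 to 5 arrays, those with an unadjusted P under 0.05, the 6 largest changes, the 6 brightest and 6 dimmest with a symbol among those detected on all arrays, and list members; M31178, D63772, ENSRNOT00000012840, ENSRNOT00000075517, BI277534 and genes named for their class were added after their values were seen. Roles were assigned from gene symbols. Figures were drawn with matplotlib 3.10.9. Alternatives were other scales, signals, filters, flags, tests and blocks, and each array left out. The probes' sequences and their positions along the transcripts were not analysed here.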

Additional observations from a re-analysis of the deposited data

How the results depend on the processing

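The number of transcripts detected on all 6 arrays (27) ranged from 25, with every usable spot required, to 40, with the flag for a positive and significant signal, and from 27 to 30 as single arrays were left out. The number detected on no array (6) was 10 with every usable spot required, 2 with at least 1 spot and 1 with the positive and significant flag, and 6 to 9 as single arrays were left out. The count at an adjusted P under 0.05 in limma was 0 under all 17 other fits. The count at an unadjusted P under 0.05 in limma (2) was 1 with the median signal, with or without normexp, and with detection required on all 6 arrays, and 5 without a filter on dim probes. The count past a fold change of 1.5 as well (2) was 0 with the median signal in both forms, 1 with detection on all arrays and 5 without a filter, and the count past that fold change alone (3) was 0, 1 and 6. With each array left out, these 3 counts ranged from 2 to 5, 2 to 4 and 2 to 7, and M15402 and FQ214365 had an unadjusted P under 0.05 each time. No share of all features was taken under these settings, so whether the shifts in count were particular to these transcripts was not tested. The median difference (-0.05) was -0.17 to 0.10 over the left-out arrays.

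The replicate numbers name different rats, and no shared deviation was seen between rats of 1 number (correlations of -0.03, -0.20 and 0.07). With the replicate number as a block, the count at an unadjusted P under 0.05 was 5, with Ptk2b among them, and no share of all features stands beside it. A fit with slide row as a block was added after seeing the data. It leaves HA replicate 1 alone against the C arrays, so only effect sizes are given. Among the 6 transcripts with the largest changes of those with a symbol and detected on all arrays, that fit turned the direction of Pdk3 (-0.085), Map2 (-0.082) and Slc28a2 (0.079), and the 75th percentile scale that of Slc28a2 (0.029). Leaving out an array gave ranges of 0.06 to 0.43 for Ldha, 0.15 to 0.42 for Pdk3, -0.15 to 0.39 for Map2, -0.32 to 0.0079 for Eif4b and -0.30 to 0.017 for Slc28a2, with the sign of the last 3 turned without HA replicate 3, HA replicate 2 and C replicate 2. The median over spots, also added later, moved no count by over 1.5 times. Scan or slide as a block was not run, since the arrays shared 1 scan, and the cause of each shift was not tested. Signal over background limits the dim transcripts: 7 were detected in a single group and allow no fold change.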
